A study of Mus musculus with 81 samples.

Results

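The comparison described here is 24 h of 4-hydroxytamoxifen (4-OHT) against 24 h of ethanol in mature T cells carrying NICD1-ER. It rests on 4 of the 81 samples of the series: the RNA sequencing libraries numbered 2 and 3 of each group, whose columns in the deposited count table have a heading of their own. The cells are a mouse hybridoma line with the properties of a mature T cell, grown in culture and infected with NICD1-ER, a fusion of the intracellular domain of Notch1 (NICD1) with a part of the estrogen receptor (ER). Infected cells received 1 µM 4-OHT for 24 h, or ethanol (EtOH), the solvent, for 24 h as the control. Both groups carry the construct, and the libraries used here hold no 4-OHT group without it, so an effect of 4-OHT itself and an effect of the activated fusion cannot be told apart. Cells treated with 1 µM 4-OHT for 4 h and 8 h (3 libraries each) are given beside the comparison. The labels give EtOH only at 24 h. Differences of 4 h or 8 h from EtOH, or between times, thus cannot be told apart from time in culture. Also given are 12 libraries of another experiment. In that experiment a biotin-tagged NICD1 (BioNICD1, wild type) or its control vector (Biocontrol) was introduced into control cells or into cells depleted of RBPJ by CRISPR, with 3 libraries for each of the 4 combinations. Whether replicates came from separate cultures is not given in the labels, so p-values measure the spread between these samples, which may be technical.

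Notch receptors are cut after binding a ligand on a neighbouring cell, and the freed intracellular domain moves to the nucleus. There it binds RBPJ, a DNA-binding protein that otherwise holds target genes down together with corepressors, and recruits Mastermind-like proteins and histone acetyltransferases. Fusing the domain to a ligand-binding part of the estrogen receptor keeps it inactive until 4-OHT is added. In T lineage cells Notch1 drives commitment to the lineage in the thymus, and in mature T cells Notch signals take part in effector differentiation.

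The 4 libraries held 4325641 and 5225345 counts in EtOH and 5316425 and 4786871 counts in 4-OHT, and 3 counts corresponded to 0.564 to 0.694 CPM (a gene's counts scaled to library size). All 15 T cell markers examined were detected, among them Cd28, Lck and Bcl11b, and their summed level was 2620 and 2505 CPM in EtOH and 2398 and 2500 CPM in 4-OHT. Of markers of other lineages, 1 of 11 B cell, 4 of 11 myeloid, 2 of 7 erythroid, 1 of 8 fibroblast and 2 of 11 natural killer and innate lymphoid genes were expressed enough to be tested. The 4-OHT pair differed by less than sampling noise (chi-square per gene 0.928, against 1.65 for the EtOH pair). As the only pair of its group it was kept as 2 samples.

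After 24 h of 4-OHT the response was larger in size upwards than downwards. Of 11808 genes tested, 778 rose (6.59%) and 498 fell (4.22%) by edgeR's quasi-likelihood test with an adjusted p under 0.05, 10.8% of genes in all. Counts of called members of each gene list below are to be read beside these shares. At least a 2-fold difference was reached by 229 genes that rose (1.94%) and by 32 that fell (0.271%). The median log2 fold change was 0.56 among genes that rose and -0.34 among genes that fell, against -0.0058 over all genes tested. Without 4-OHT replicate 2 the counts were 504 up and 242 down, and without 4-OHT replicate 3 they were 546 up and 215 down. DESeq2 called 437 up and 180 down, and summing the 4-OHT pair into 1 sample left 329 down. The 4 libraries did not overlap between groups for 48.9% of genes tested, so an absence of overlap alone says little here. In such bulk samples fewer cells of a kind and less RNA per cell cannot be told apart.

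**Figure D1:**
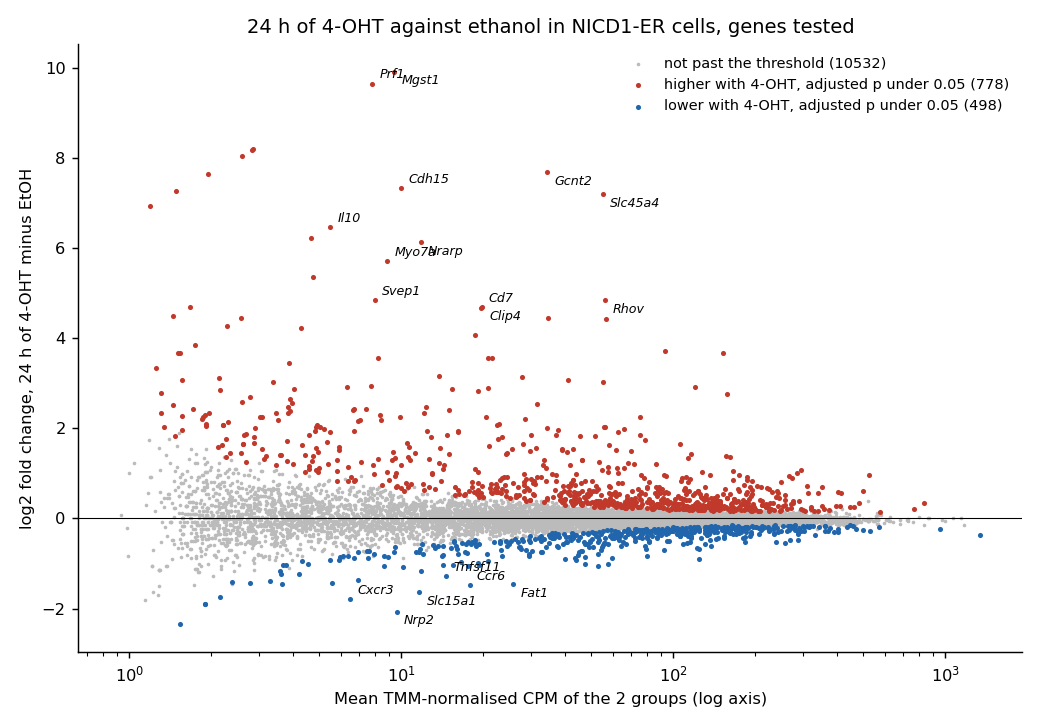
Log2 fold change of each gene tested (24 h of 4-OHT minus EtOH, vertical axis) against its mean level in the 2 groups (TMM-normalised CPM, log axis), with the 778 genes that rose in red and the 498 that fell in blue. The 12 genes with the largest named rises are labelled, from Clip4 and Cd7 at 4.68 upwards, and the 6 with the largest named falls, which reach -2.07 at Nrp2; values near the top rest on EtOH levels at or near 0 counts.

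The construct and its partner were read first. Notch1 stood at 160 and 156 CPM in EtOH and at 188 and 206 CPM in 4-OHT, a log2 fold change of 0.32 ± 0.054 (SE; adjusted p = 0.000536). Its reads can come from the cell's own gene and from the construct, which the counts do not separate. In control cells with Biocontrol, normalised separately, Notch1 stood at 0.846 ± 0.309 CPM (mean ± SD, n = 3). The share of the construct in its reads was not tested. Esr1, the estrogen receptor gene, was at 6.24 and 6.13 CPM in EtOH and at 5.47 and 5.9 CPM in 4-OHT (log2 -0.12, adjusted p = 0.866). The construct holds a part of the estrogen receptor, so Esr1 reads may come from it too. With Biocontrol in control cells Esr1 stood at 0 CPM (n = 3), and the origin of its reads was not tested. Rbpj itself fell, from 213 and 207 CPM to 157 and 156 CPM (log2 -0.42 ± 0.048, adjusted p = 9.91e-06), and its level at 8 h of 4-OHT was 158 CPM.

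Known Notch target genes moved mostly upwards. Of 11 target genes tested, 6 rose, 1 fell and 4 did not pass, with a median log2 fold change of 0.51, and these counts were the same by DESeq2 and without any 1 of the 4 libraries. Notch1 is 1 of the 6 that rose, and its reads may come from the construct. Hey1, a repressor of the hairy and enhancer of split-related family, read 3 and 3.07 CPM in EtOH and 70.3 and 62.4 CPM in 4-OHT, which is 21.8-fold (log2 4.44 ± 0.17, adjusted p = 1.11e-11). Nrarp, a feedback inhibitor of the Notch complex, had 0.231 and 0.383 CPM in EtOH and 24.9 and 21.7 CPM in 4-OHT. Because EtOH held 3 counts in all, the rise of Nrarp is given as a ratio of 74.4 with a 95% counting interval from 25.2 to 363.

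Dtx1, a ubiquitin ligase that modifies Notch signalling, rose from 88.5 and 85.6 CPM to 226 and 228 CPM (log2 1.38 ± 0.059, adjusted p = 6.71e-11). Hes1, the archetypal Notch target repressor, went from 43.7 and 44.6 CPM to 73.9 and 70.6 CPM (log2 0.71, adjusted p = 3.37e-06). Il2ra, the alpha chain of the interleukin 2 receptor, increased from 213 and 211 CPM to 297 and 306 CPM (log2 0.51, adjusted p = 7.57e-07). The target that fell was Myc, a growth regulator that Notch1 raises in T cell leukaemia: 204 and 184 CPM in EtOH, 149 and 160 CPM in 4-OHT, log2 -0.33 ± 0.057 (adjusted p = 0.000732).

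Levels of these targets at 4, 8 and 24 h of 4-OHT did not follow 1 pattern. Hey1 averaged 17.5 CPM at 4 h and 33.1 CPM at 8 h, and was higher still at 24 h (24 h minus 8 h, log2 1.02, adjusted p = 1.01e-06). Nrarp followed the same order of levels, and its 24 h minus 8 h difference was 1.36 on the log2 scale (adjusted p = 6.28e-06). Hes1 stood at 67.2 CPM at 8 h, and its difference between 24 h and 8 h did not pass (log2 0.11, adjusted p = 0.302). Notch1 averaged 136 CPM at 8 h, below all 4 libraries of the 24 h comparison, and 24 h exceeded 8 h by 0.52 on the log2 scale (adjusted p = 3.35e-06). With EtOH at 24 h only, time in culture and 4-OHT are not separated in these levels. The 24 h libraries enter both contrasts, so the 2 differences of a gene are not independent.

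**Figure D2:**
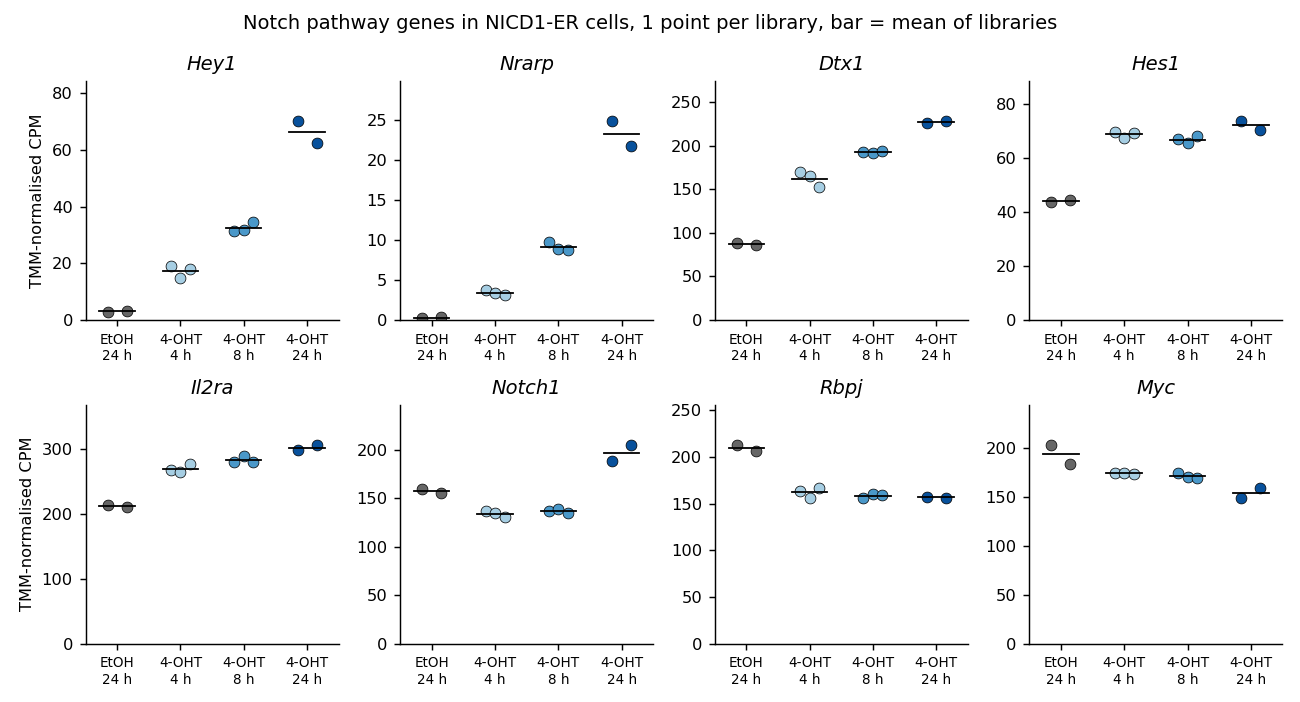
TMM-normalised CPM (vertical axes, from 0) of 8 Notch pathway genes in EtOH at 24 h and after 4, 8 and 24 h of 4-OHT, with 1 point per library and a bar at the mean of the libraries. Hey1 climbs from 3 CPM in EtOH to 62.4 and 70.3 CPM at 24 h, Hes1 is level from 4 h on, and Rbpj is near 157 CPM at 24 h against 213 and 207 CPM in EtOH.

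Among 28 genes of the Notch machinery (ligands, receptors, secretase subunits and modifiers), 4 rose and 3 fell, with a median log2 fold change of 0.01. Notch1, whose reads may come from the construct, is counted among those that rose. Of all genes tested, 6.59% rose and 4.22% fell. Jag1, a Notch ligand, rose from 6.24 and 6.51 CPM to 22.6 and 23.6 CPM (log2 1.85 ± 0.18, adjusted p = 1.28e-06), and it stood at 10.2 CPM at 8 h of 4-OHT. Notch2, the receptor paralogue, fell by 0.28 on the log2 scale, from 577 and 586 CPM to 487 and 473 CPM (adjusted p = 0.00183). Lfng, a glycosyltransferase that tunes which ligands a Notch receptor answers, went from 101 and 94.5 CPM to 76.3 and 80.3 CPM (log2 -0.32, adjusted p = 0.00458), a call that DESeq2 did not make and that was lost without 4-OHT replicate 2. Without that replicate the list had 2 genes up and 1 down.

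Of 20 tested cofactors of RBPJ, 3 rose and 2 fell, Rbpj being 1 of the 2, where 6.59% of all genes tested rose and 4.22% fell. Kmt2d, a histone H3 lysine methyltransferase, rose from 181 and 199 CPM to 266 and 313 CPM (log2 0.60, adjusted p = 6.24e-05). Bcor, a corepressor of BCL6, fell from 216 CPM in both EtOH libraries to 153 and 148 CPM (log2 -0.52, adjusted p = 9.3e-07).

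To show where letters of the RBPJ recognition sequence stand near the start sites of responding genes, promoters (250 bases before to 50 after the start, RefSeq, build GRCm38.p6) were searched for TGGGAA and for the longer CGTGGGAA on both strands; each match of the longer motif is also a match of the shorter. Genes were picked for display from those with a match. Fat1, Agpat9, Mpzl1 and Rbpj, which all fell, held the shorter motif too and are not shown. Other called genes with the longer motif are not shown either. The stretches below belong to 3 genes with large rises (Prf1, Myo7a, Svep1) and 1 with a large fall (Ccr6). The remaining stretches are from 2 called genes that hold the longer motif, Bcl2l14, which rose, and Lfng, which fell. Bcl2l14 was chosen after its values were seen. All stretches lie before the start site, are written along the gene's strand, and carry the motif, or its reverse complement, in capitals.
Prf1, chr10:61297672-61297721, plus strand: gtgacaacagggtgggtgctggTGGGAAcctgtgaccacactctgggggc
Myo7a, chr7:98119673-98119722, minus strand: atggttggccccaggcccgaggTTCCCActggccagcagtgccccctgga
Svep1, chr4:58206686-58206735, minus strand: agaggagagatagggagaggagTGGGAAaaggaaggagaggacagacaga
Ccr6, chr17:8242429-8242478, plus strand: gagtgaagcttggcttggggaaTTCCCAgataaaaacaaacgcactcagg
Bcl2l14, chr6:134396245-134396294, plus strand: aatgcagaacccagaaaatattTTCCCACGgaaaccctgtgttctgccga
Lfng, chr5:140607211-140607260, plus strand: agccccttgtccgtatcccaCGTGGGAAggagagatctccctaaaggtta

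The shorter motif stood in 23.5% of 851 promoters of genes that rose (610 of the 778 genes matched a promoter), in 22.8% of 557 promoters of genes that fell, and in 22.7% of 11766 promoters of all genes tested. CGTGGGAA stood in 1.06%, 0.898% and 1.07% of the same promoters. The shares of called genes thus lay near those of all genes tested, and a match describes letters in this window and says nothing of binding.

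The largest rises involved genes that were silent or nearly so in EtOH. Mgst1, a microsomal glutathione transferase, had no counts in EtOH and 20 and 17.7 CPM in 4-OHT, at least 60.2-fold higher when EtOH is set at the floor of 3 counts over the group. Prf1, the pore-forming protein perforin of cytotoxic granules, had no counts in EtOH and 16.8 and 14.5 CPM in 4-OHT, at least 50.0-fold higher. Gcnt2, which adds branches to glycans of the I antigen, was at 0.462 and 0.192 CPM in EtOH and at 69 and 68.1 CPM in 4-OHT (ratio 218, 95% counting interval 74.4 to 1061). These 3 genes were named by a rule that asked for no overlap between groups, so their separation was set by that choice.

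Cdh15, a cadherin known from muscle, went from 0 and 0.192 CPM to 19.6 and 20.2 CPM (ratio 190, interval 33.7 to 7542). Il10, the anti-inflammatory cytokine interleukin 10, went from 0 and 0.192 CPM to 12.3 and 9.48 CPM (ratio 105, interval 18.4 to 4165). Myo7a, an unconventional myosin, went from 0 and 0.575 CPM to 15.8 and 19.2 CPM (ratio 55.4, interval 18.7 to 271). These intervals and floors cover counting error only, and their upper ends are wide because EtOH held 1 to 3 counts.

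Slc45a4, a solute carrier, read 0.693 and 0.766 CPM in EtOH and 116 and 104 CPM in 4-OHT (log2 7.19 ± 0.19, adjusted p = 7.45e-14). Rhov, an atypical small GTPase, read 3.7 and 3.83 CPM in EtOH and 110 and 107 CPM in 4-OHT (log2 4.84 ± 0.12, adjusted p = 7.45e-14). Svep1, an extracellular matrix protein, also had a log2 fold change of 4.84 (adjusted p = 1.39e-08), and Clip4, a linker protein of microtubules, one of 4.68 (adjusted p = 1.55e-10). Cd7, a T and natural killer cell surface glycoprotein, rose from 1.85 and 1.15 CPM to 39.4 and 36.5 CPM (log2 4.68, adjusted p = 3.56e-10). Cd7 averaged 2.26 CPM at 4 h and 5.34 CPM at 8 h of 4-OHT, and 24 h exceeded 8 h by 2.76 on the log2 scale (adjusted p = 4.99e-09).

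Cytotoxic granule genes rose and none of them fell: 9 of 16 tested passed upwards, with a median log2 fold change of 0.48, and 6 to 8 passed when 1 of the 4 libraries was left out. Serpinb6b, a granzyme A inhibitor, went from 12.9 and 11.5 CPM to 97.4 and 99.7 CPM (log2 3.02 ± 0.097, adjusted p = 1.23e-12). Serpinb9, the granzyme B inhibitor that protects cells from their own granules, went from 47.1 and 55.2 CPM to 163 and 160 CPM (log2 1.65, adjusted p = 7.78e-11). Nkg7, a granule membrane protein, was lower in level, at 2.54 and 1.72 CPM in EtOH and at 9.8 and 6.74 CPM in 4-OHT (log2 1.99, adjusted p = 0.000485). Prf1 belongs to this list too, and its level at 24 h exceeded that at 8 h of 4-OHT by 3.92 on the log2 scale (adjusted p = 1.66e-07), from 1 CPM at 8 h.

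Cytokine genes went both ways. Of 15 tested, 5 rose and 4 fell. Besides Il10, Il22, a cytokine that acts on epithelial cells, rose from 9.7 and 10.5 CPM to 46.7 and 47.2 CPM (log2 2.21 ± 0.12, adjusted p = 1.52e-09), and it was at 44 CPM by 8 h. Ifng, interferon gamma, was at 0.924 and 0.766 CPM in EtOH and at 3.77 and 3.37 CPM in 4-OHT (log2 2.07, adjusted p = 0.00874), a call lost with DESeq2, without EtOH replicate 3 and without 4-OHT replicate 2. Csf1, the macrophage growth factor, rose by 0.79 on the log2 scale, from 12.7 and 15.1 CPM to 23 and 25.5 CPM (adjusted p = 0.00102).

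The cytokines that fell were members of the tumour necrosis factor family. Tnfsf11 (RANKL) went from 20.1 and 21.5 CPM to 8.48 and 8.64 CPM (log2 -1.28 ± 0.17, adjusted p = 6.22e-05). Lta went from 21.5 and 20.3 CPM to 11.7 and 8.64 CPM (log2 -1.02, adjusted p = 0.000593), and Ltb from 37.7 CPM in both EtOH libraries to 25.1 and 20.2 CPM (log2 -0.73, adjusted p = 0.00133). The fourth, Tnf, had a log2 fold change of -0.24 with an adjusted p of 0.0425, a call lost by DESeq2 and without any 1 of the 4 libraries.

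Cytokine receptors and genes of the interleukin 2 and STAT5 axis moved as well. Of 22 receptor genes tested, 9 rose and 4 fell. Il2rb, the shared beta chain of the interleukin 2 and 15 receptors, rose from 41.6 and 41.4 CPM to 87.8 and 93 CPM (log2 1.12 ± 0.081, adjusted p = 4.19e-08). Il4ra rose from 6.93 and 7.47 CPM to 15.3 and 20.9 CPM (log2 1.31, adjusted p = 0.000858), and Tgfbr3, a coreceptor for transforming growth factor beta, from 2.08 and 1.72 CPM to 8.29 and 7.59 CPM (log2 2.07, adjusted p = 0.000213). At 8 h these 3 genes stood at 47, 6.53 and 2.98 CPM, below both 24 h libraries. Both chains of the interferon gamma receptor fell: Ifngr1 by 0.36 (adjusted p = 0.000162) and Ifngr2 by 0.53 (adjusted p = 0.000485) on the log2 scale, and Tgfbr2 fell by 0.35 (adjusted p = 6.07e-05).

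Of 15 genes that respond to STAT5, the transcription factor downstream of interleukin 2, 7 rose and 3 fell. DESeq2 called 2 up and 2 down, and 4 rose when EtOH replicate 3 or 4-OHT replicate 2 was left out. Socs3, a feedback inhibitor of cytokine signalling, rose from 3 and 1.72 CPM to 11.9 and 13.1 CPM (log2 2.42 ± 0.26, adjusted p = 5.72e-06), from 2.65 CPM at 8 h. Bcl2, which protects cells from apoptosis and is raised by STAT5, fell from 298 and 313 CPM to 201 and 216 CPM (log2 -0.55, adjusted p = 2.36e-06).

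**Figure D3:**
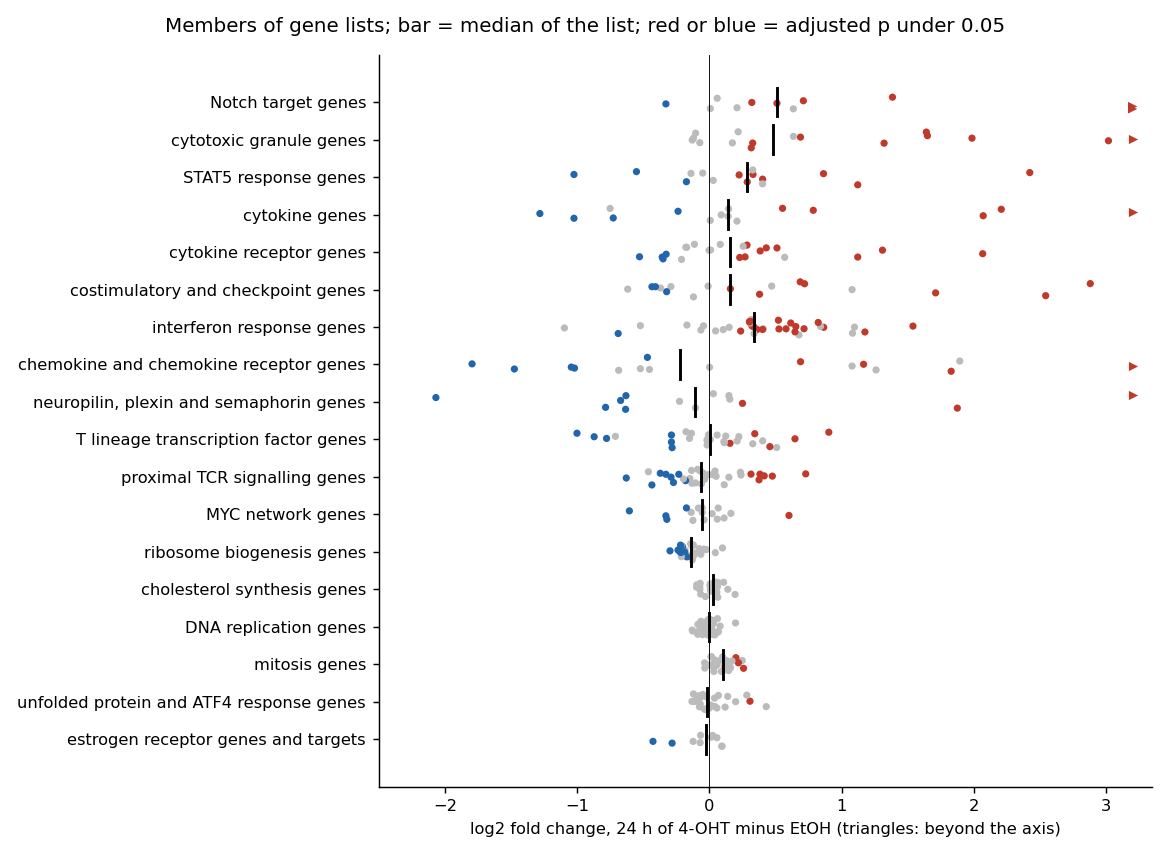
Log2 fold change (24 h of 4-OHT minus EtOH, horizontal axis) of the tested members of 18 gene lists, 1 point per gene, coloured where the adjusted p is under 0.05, with a bar at the list's median; triangles mark values beyond the axis. The medians run from -0.23 for chemokine and chemokine receptor genes to 0.51 for Notch target genes, and cholesterol synthesis and DNA replication genes hold no coloured point.

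Receptors that guide T cells moved in both directions. Of 16 chemokine and chemokine receptor genes tested, 4 rose and 5 fell. The number that fell was 5 also by DESeq2 and without any 1 library, and 2 rose without 4-OHT replicate 2. Ccr7, which directs cells to lymph nodes, rose from 21.9 and 18.2 CPM to 71.6 and 69.8 CPM (log2 1.83 ± 0.13, adjusted p = 3.31e-08). Ccr4, a receptor of skin-homing and type 2 helper cells, rose from 140 and 152 CPM to 229 and 244 CPM (log2 0.69, adjusted p = 1.1e-07). For both genes the lower 4-OHT library lay above the higher EtOH library, but the groups did not overlap, either way, for 48.9% of genes tested.

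The receptors that fell are known from effector and memory cells that enter inflamed tissue. Cxcr3 went from 10.9 and 9.39 CPM to 2.83 and 2.95 CPM (log2 -1.79 ± 0.26, adjusted p = 0.000145), and Ccr6 from 26.3 and 26.2 CPM to 10.9 and 7.8 CPM (log2 -1.47, adjusted p = 1.56e-05). Cxcr6 went from 69.8 and 72.4 CPM to 36.2 and 32.7 CPM (log2 -1.04, adjusted p = 4.71e-07), and Ccr2 from 57.1 and 69.5 CPM to 30.3 and 32.7 CPM (log2 -1.02, adjusted p = 2.63e-06). Ccr6 had reached 9.43 CPM by 8 h and its step from 8 h to 24 h did not pass (log2 0.05, adjusted p = 0.907).

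**Figure D4:**
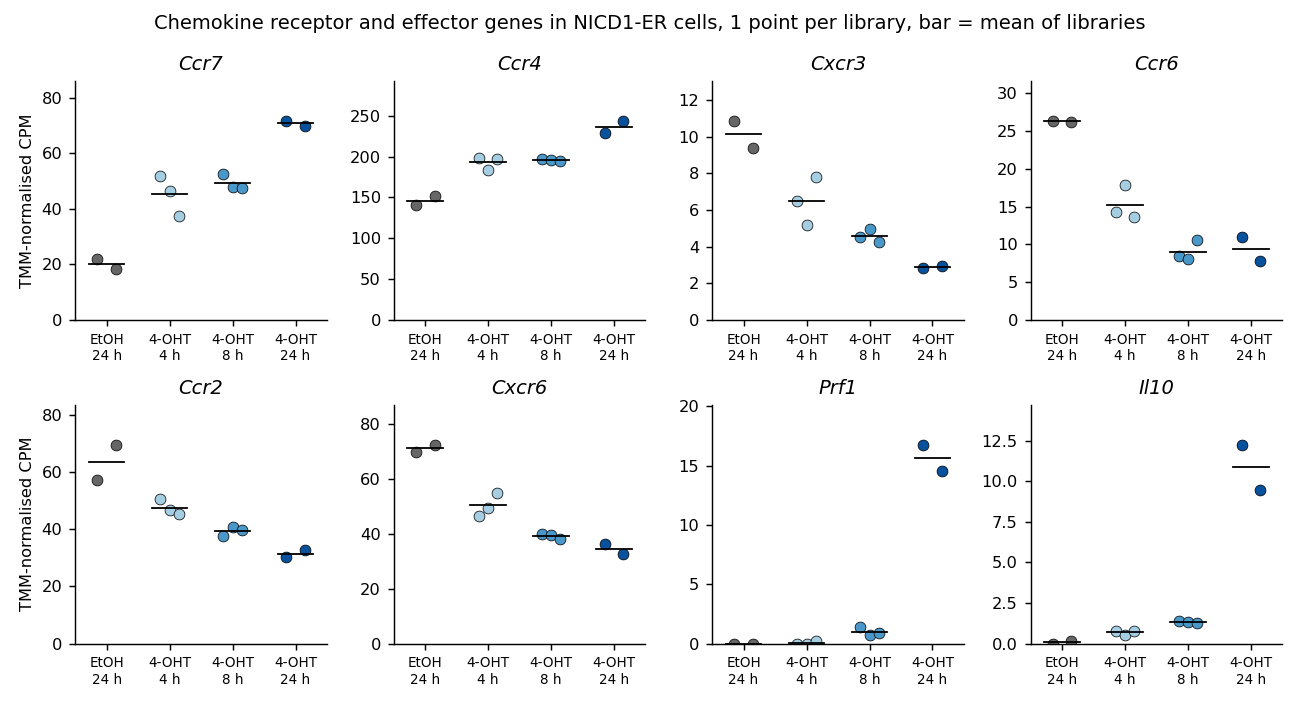
TMM-normalised CPM (vertical axes, from 0) of 6 chemokine receptor genes, Prf1 and Il10 in EtOH at 24 h and after 4, 8 and 24 h of 4-OHT, with 1 point per library and a bar at the mean of the libraries. Ccr7 and Ccr4 stand highest at 24 h, Cxcr3, Ccr6, Ccr2 and Cxcr6 stand highest in EtOH, and Prf1 and Il10 reach 14.5 to 16.8 and 9.48 to 12.3 CPM at 24 h from at most 1.39 CPM in any library of the earlier times or of EtOH.

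Neuropilins, plexins and semaphorins, a family of guidance receptors and ligands, showed the largest named fall. Nrp2, a coreceptor for semaphorins and vascular growth factors, went from 15.9 and 15.1 CPM to 3.02 and 4.43 CPM (log2 -2.07 ± 0.22, adjusted p = 4.27e-06), with 4.36 CPM at 8 h. In contrast, the plexin gene Plxnd1 rose from 13.4 and 13 CPM to 183 and 164 CPM (log2 3.72 ± 0.096, adjusted p = 7.45e-14). Of the 13 family members tested, 3 rose and 5 fell, and without EtOH replicate 3 the counts were 1 and 4. Among adhesion molecules, where 3 of 20 rose and 2 fell, Itgb3, an integrin beta chain, fell from 151 and 148 CPM to 95.4 and 94.6 CPM (log2 -0.65, adjusted p = 1.68e-07). Of all genes tested, 6.59% rose and 4.22% fell.

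Other genes among the 12 named for their fall encode transporters, cytoskeletal and surface proteins. Slc15a1, a peptide transporter, went from 17.1 and 18.2 CPM to 5.84 and 5.48 CPM (log2 -1.64, adjusted p = 2.84e-05), and fell further between 8 h and 24 h (log2 -1.06, adjusted p = 0.00257). Fat1, an atypical cadherin, went from 37.2 and 38.5 CPM to 15.1 and 12.4 CPM (log2 -1.45, adjusted p = 1.02e-06). Myo7b, Nhsl2, Sbk1 and Mpzl1 had log2 fold changes of -1.16, -1.07, -1.05 and -1.03, and all 4 passed. The remaining one, Agpat9, an acyltransferase, had -1.06 (adjusted p = 0.0143), a call that DESeq2 did not make and that was lost without EtOH replicate 3, 4-OHT replicate 2 or 4-OHT replicate 3.

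Of 29 transcription factors of T cell lineages, 5 rose and 6 fell, and 3 rose when EtOH replicate 2, EtOH replicate 3, 4-OHT replicate 2 or 4-OHT replicate 3 was left out. Tbx21 (T-bet), the factor of type 1 helper and cytotoxic cells, rose from 15.5 and 17.1 CPM to 29.8 and 31.4 CPM (log2 0.90 ± 0.12, adjusted p = 8.38e-05). Runx2 (log2 0.65, adjusted p = 0.000197) and Runx3 (log2 0.46, adjusted p = 2.14e-05) rose too. Lef1, a nuclear partner of beta-catenin, fell from 76.5 and 77.6 CPM to 40.7 and 36 CPM (log2 -1.001, adjusted p = 1.61e-07). Maf fell from 73.7 and 79.9 CPM to 40.3 and 44.1 CPM (log2 -0.87, adjusted p = 2.1e-06), and Tox2 from 35.8 and 38.7 CPM to 21.3 and 22.3 CPM (log2 -0.78, adjusted p = 8.38e-05).

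Checkpoint and costimulatory receptors rose in 7 of 17 genes tested and fell in 3, and DESeq2 called 4 up and 3 down. Havcr2 (TIM-3), an inhibitory receptor, went from 10.9 and 7.86 CPM to 53.3 and 54.4 CPM (log2 2.54 ± 0.14, adjusted p = 1.06e-09). Cd160 went from 1.39 and 0.575 CPM to 6.97 and 7.17 CPM (log2 2.88, adjusted p = 3.9e-05), and Cd28, the main costimulatory receptor, from 34.7 and 43.5 CPM to 65.4 and 64.5 CPM (log2 0.72, adjusted p = 0.000307). Pdcd1 (PD-1) fell by 0.32, from 276 and 248 CPM to 206 and 212 CPM (adjusted p = 0.000634).

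Genes of proximal T cell receptor signalling were mixed, with 6 of 35 up, 8 down and a median of -0.06. Pag1, an adaptor that recruits the inhibitory kinase Csk, rose from 222 and 245 CPM to 388 and 386 CPM (log2 0.73, adjusted p = 1.01e-07). Ubash3a, a negative regulator, fell from 63.5 and 59.6 CPM to 39 and 40.5 CPM (log2 -0.63, adjusted p = 8.38e-05). Leaving out 4-OHT replicate 2 or 3 left 4 falls, and leaving out EtOH replicate 2 left 5.

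Interferon response genes rose by small amounts: 22 of 39 tested passed upwards and 1 downwards, with a median log2 fold change of 0.34. DESeq2 called 13 up and 1 down. Isg15, a ubiquitin-like protein, went from 14.6 and 11.7 CPM to 38.6 and 36.9 CPM (log2 1.54 ± 0.13, adjusted p = 2.86e-07), and Irf9, part of the interferon-activated factor ISGF3, from 27 and 24.1 CPM to 53.9 and 61.5 CPM (log2 1.18, adjusted p = 9.45e-07). Usp18, which removes ISG15 from proteins and damps the interferon receptor, fell from 120 and 109 CPM to 72.2 and 69.3 CPM (log2 -0.69, adjusted p = 1.28e-06). Of 21 genes of antigen presentation on MHC class I, 3 rose and none fell, led by Tapbpl at 1.24 (adjusted p = 6.38e-08) and Nlrc5 at 0.56 (adjusted p = 7.93e-06). Of all genes tested, 6.59% rose and 4.22% fell.

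Growth and housekeeping lists held few or no calls that lasted across settings. Ribosome biogenesis genes fell in 10 of 32 and rose in none, with a median of -0.14, but DESeq2 called 1, and leaving out 4-OHT replicate 3, 4-OHT replicate 2 or EtOH replicate 2 left 1, 2 and 5. Polr1b, a subunit of RNA polymerase I, fell by 0.30 on the log2 scale (adjusted p = 0.000574). No gene passed among 38 DNA replication, 23 cholesterol synthesis, 80 cytosolic ribosomal protein and 67 replication-dependent histone genes. At an unadjusted p under 0.05 the whole table held 2498 genes. Histone genes include near-identical copies such as Hist2h3c1 and Hist2h3c2, whose values were the same, so reads shared between copies make them uncertain.

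Some marker genes of other lineages also changed. Cd22, a B cell receptor of sialic acids, was at 37.4 and 43.7 CPM in EtOH and at 272 and 278 CPM in 4-OHT (log2 2.75 ± 0.067, adjusted p = 6.85e-14). The summed level of the 11 B cell markers was 37.9 and 47.7 CPM in EtOH and 276 and 281 CPM in 4-OHT, nearly all of it Cd22, and 4 of the 11 were at 0 in all 4 libraries. Pdgfrb, a receptor of platelet-derived growth factor and a fibroblast marker, went from 0 and 0.192 CPM to 10.2 and 8.22 CPM (ratio 88.4, 95% counting interval 15.5 to 3527), while 3 of the 8 fibroblast markers were at 0 in all 4 libraries. Of the 4 myeloid markers tested, 1 rose and 2 fell, and 3 of the 11 in the list were at 0 in all 4 libraries. The scavenger receptor Cd163 fell from 9.24 and 10.7 CPM to 3.58 and 4.22 CPM (log2 -1.37 ± 0.24, adjusted p = 0.000738). Itgam rose (log2 1.40, adjusted p = 0.0234) and Lyz2 fell (log2 -1.40, adjusted p = 0.028), but DESeq2 called neither, Itgam was lost without EtOH replicate 2 or either 4-OHT replicate, and Lyz2 without any 1 of the 4 libraries. The summed level of the 11 was 52.4 and 51.5 CPM in EtOH and 45.6 and 45.3 CPM in 4-OHT. The part of other cell types in these values was not tested.

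The levels at 24 h were also set against those at earlier times. Against 8 h of 4-OHT, 904 genes were higher (7.66%) and 678 lower (5.74%) at 24 h. Without 4-OHT replicate 2 these counts were 461 and 199, and without 4-OHT replicate 3 they were 456 and 181. DESeq2 called 295 higher and 88 lower. Against 4 h of 4-OHT, 945 genes (8%) were higher and 639 (5.41%) lower, 13.4% in all, as against 8 h. Those counts were 559 and 218 without 4-OHT replicate 2, 534 and 168 without 4-OHT replicate 3, and 389 and 92 by DESeq2. For 23 genes the 24 h level differed from both EtOH and 8 h in opposite directions, 3 of them above EtOH. Ifi202b, an interferon-inducible DNA sensor, stood at 19.4 and 21.1 CPM in EtOH, at 69 CPM at 8 h and at 48.2 and 44.7 CPM at 24 h. Itgb3 stood at 73.4 CPM at 8 h, below its 24 h libraries, which lay in turn below those in EtOH.

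The genes of the 24 h comparison were then set beside BioNICD1, which shares no library with it and carries another form of the same Notch1 domain. In control cells BioNICD1 changed 32.9% of 11315 genes tested (18.7% up and 14.2% down). Of 713 genes that rose at 24 h and were tested in both, 397 (55.7%) also rose with BioNICD1, where 18.2% of all genes tested in both did. The 397 are 19.9% of the 1997 genes that rose with BioNICD1, where 713 of all 11001 genes rose at 24 h. A further 64 (8.98%) of the 713 fell with BioNICD1. Of 491 genes that fell at 24 h, 61 (12.4%) also fell with BioNICD1, where 14.2% of all genes did. The 61 are 3.91% of the 1560 genes that fell with BioNICD1, where 491 of all 11001 genes fell at 24 h. Another 164 (33.4%) of the 491 rose with BioNICD1, where 18.2% of all genes did.

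For the genes named above, the paired values were as follows. In control cells Dtx1 had 249 ± 28.2 CPM (mean ± SD, n = 3) where BioNICD1 was introduced and 1.67 ± 0.712 CPM (n = 3) where Biocontrol was, a log2 fold change of 7.22 against 1.38 at 24 h of 4-OHT. Plxnd1 changed by 4.48 there and by 3.72 here, Il22 by 2.21 in each, and Nrp2 by -1.66 and -2.07. Several genes that fell at 24 h rose with BioNICD1: Bcl2 by 0.93 (adjusted p = 0.000126), Lef1 by 0.49 (adjusted p = 0.00232), Maf by 0.71 (adjusted p = 0.000129) and Usp18 by 2.34 (adjusted p = 1.23e-08). Myc is another, at 0.73 with BioNICD1 (adjusted p = 0.000235) and -0.33 at 24 h. The BioNICD1 response differed between control and RBPJ-depleted cells for 22.5% of genes tested, 13.3% upwards and 9.17% downwards. That count of 2548 genes ran from 1614 without Biocontrol control-cell replicate 2 to 4361 without Biocontrol depleted-cell replicate 3. Jag1 rose at 24 h of 4-OHT and had a log2 difference of -0.21 with BioNICD1 (adjusted p = 0.714). These differences between the experiments were not tested, and the libraries differ in kind: replication-dependent histone genes held 0.491 to 0.591% of counts in the NICD1-ER libraries and 0.00931 to 0.0331% in the BioNICD1 libraries.

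**Figure D5:**
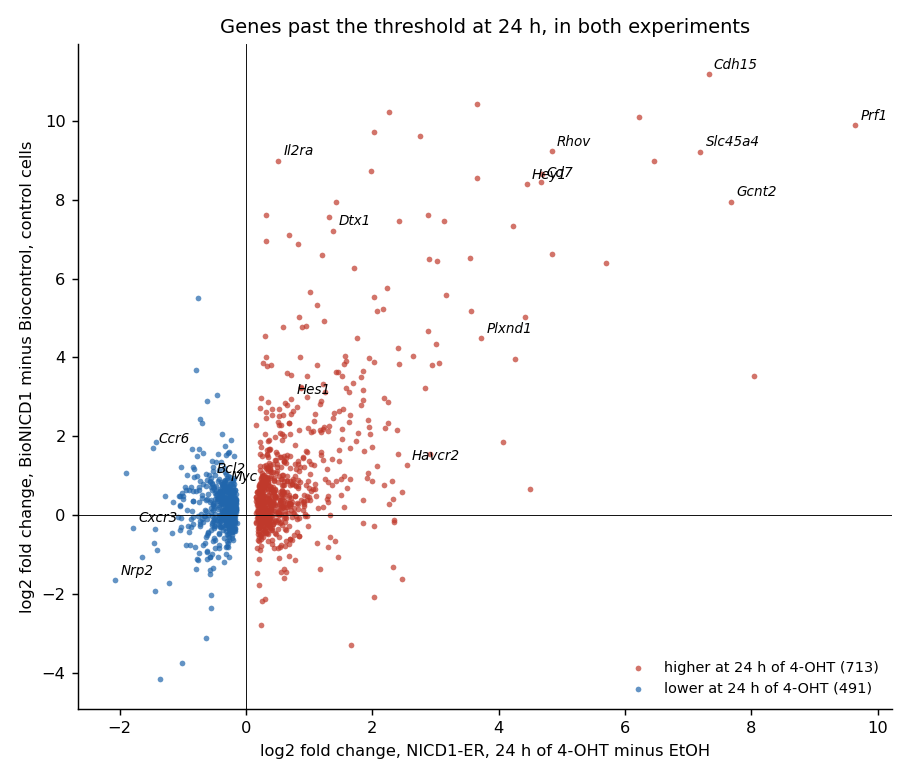
Log2 fold change with BioNICD1 in control cells (vertical axis) against the NICD1-ER log2 fold change, 24 h of 4-OHT minus EtOH (horizontal axis), for the 713 genes that rose (red) and the 491 that fell (blue) at 24 h and were tested in both. Most of the large rises lie above 0 on both axes, and the blue points lie on both sides of 0.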

How the data were processed

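The authors deposited raw read counts per gene symbol (24391 genes), whole numbers that are not normalised. Per the submitters' processing notes TopHat2 2.1.1, Picard, deepTools and the build mm9 were used, without stated roles, and the counting tool and its use of strand are not given in the sources used here. Of 65 sample columns 22 were used and 43 were not, 2 of them because they share a heading and 4 because they carry NICD1-ER 24 h replicate numbers that match no label.

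The members and gene lists were chosen with earlier results of these data known. Pairs of libraries were compared by chi-square per gene, on genes holding 50 counts or more. Replicates 1 and 2 at 4 h (0.907) and at 8 h (0.835) differed by less than sampling noise and were summed, each counting as 1 sample. The 8 resulting NICD1-ER samples in 4 groups were fitted together in edgeR 4.0.16 (R 4.3.3): TMM factors, filterByExpr, 1 mean per group, prior count 0.125, two-sided quasi-likelihood F-tests, Benjamini-Hochberg adjustment over the genes tested, threshold 0.05. The 12 BioNICD1 libraries were fitted alone in the same way. CPM are TMM-normalised, and means at 4 h and 8 h are over the samples of the fit. The fit was also run on simulated counts drawn with its own estimates of level and spread, which cannot show whether that spread is right. Ratios against 1 to 3 counts carry 95% exact intervals.

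Named genes are 9 Notch pathway genes, the 12 largest rises and 12 largest falls among called genes without overlap and with at least 10 CPM in the higher group, up to 4 called members of a list in each direction (for lists with under 3 called also the highest uncalled), and 4 genes with opposite differences from EtOH and 8 h. Alternatives were DESeq2 1.42.0, other scaling, filter, sample and block choices, and leaving out libraries. Region lists were not used here.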

Additional observations from a re-analysis of the deposited data

Results flagged for a closer look

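The response to BioNICD1 was set against RBPJ, as the response in control cells minus that in RBPJ-depleted cells (an interaction term in edgeR's quasi-likelihood test). Among the genes named by pathway or by size of rise at 24 h, the difference passed for 14, where 22.5% of all genes tested passed (13.3% upwards, 9.17% downwards). On the log2 scale it was -0.42 for Rbpj, 0.55 for Myc, 3.10 for Hes1, 7.97 for Hey1, 7.43 for Dtx1 and 9.57 for Il2ra. It was 12.4 for Prf1, 9.49 for Gcnt2, 13.8 for Cdh15, 8.34 for Slc45a4, 10.8 for Il10, 5.92 for Myo7a, 9.99 for Rhov and 8.44 for Svep1. Where groups held few or no counts, the fitted difference moves with the prior count and gives no bound. Hey1 stood at 0.208 ± 0.189 CPM with Biocontrol and 72.5 ± 1.07 CPM with BioNICD1 in control cells, and at 0.944 ± 0.3 and 1.23 ± 0.983 CPM in depleted cells (mean ± SD, n = 3 each). In the same order Hes1 stood at 2.22 ± 1.22 and 17.2 ± 0.309 CPM in control cells, and at 24.9 ± 2.97 and 22.3 ± 3.77 CPM in depleted cells. The depleted-cell level of Hes1 with Biocontrol thus lay above its level with BioNICD1 in control cells. Notch1 (0.45, adjusted p = 0.277), Clip4 (6.17, adjusted p = 0.0812) and Cd7 (7.06, adjusted p = 0.0502) did not pass, and Nrarp, Mgst1 and Esr1 were not tested there. With BioNICD1, Notch1 stood at 169 ± 4.7 CPM in control cells and at 888 ± 80.5 CPM in depleted cells. With Biocontrol it stood at 0.846 and 6.18 CPM. Notch1 levels were thus unequal in the 2 backgrounds, and their part in the differences above was not tested. With BioNICD1 in control cells Nrarp averaged 0.52 CPM and Mgst1 0.0323 CPM, against 23.3 and 18.8 CPM at 24 h of 4-OHT with NICD1-ER. The depleted libraries differed widely among themselves, with a chi-square per gene of up to 52.6. No RBPJ-depleted group with NICD1-ER was analysed here.

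Of the 23 genes that differed from 8 h of 4-OHT in the direction opposite to their difference from EtOH, 4 are named. The 24 h minus 8 h difference was -0.57 for Ifi202b and -0.45 for Slc16a10, both above EtOH at 24 h, and 0.94 for Ypel2 and 0.37 for Itgb3, both below EtOH at 24 h. The call of Ypel2 against EtOH (log2 -0.81, adjusted p = 0.006) was lost by DESeq2 (adjusted p = 0.0934), without EtOH replicate 3 (0.126) and without 4-OHT replicate 2 (0.0813).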

How the results depend on the processing

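Of 196 named genes past the threshold, none changed direction under any alternative run (195 had a value in the fit of the 24 h libraries alone). DESeq2 lost 55 of these calls, summing the 4-OHT libraries 28, and leaving out 1 library 32 to 57. In all, DESeq2 called 617 genes, 437 up and 180 down, and each of the 617 was also called by edgeR in the same direction. Genes that fell numbered 329 with the 4-OHT libraries summed. Leaving out 1 library gave 746 to 970 genes in all, 504 to 627 up and 215 to 360 down. Falls of at least 2-fold numbered 17 with DESeq2 and 18 to 30 without 1 library. For 24 h against 8 h DESeq2 gave 383 (295 up, 88 down) and leaving out a 24 h library 637 to 660 (456 to 461 up, 181 to 199 down). Against 4 h it gave 481 (389 up, 92 down), and 702 to 777 (534 to 559 up, 168 to 218 down). Residuals of the samples numbered 2, which at 4 h and 8 h are replicates 1 and 2 summed, were correlated between groups. The values were 0.145 to 0.160 between EtOH, 4 h and 8 h, and 0.0524 to 0.0754 between 24 h of 4-OHT and each of those groups. Counting noise lowers such values, so they cannot show whether the numbers mark shared cultures. The labels name no shared culture, so the replicate block was kept as an alternative. With the replicate block 1680 genes passed at 24 h (961 up, 719 down), and 1045 were lower against 8 h and 998 against 4 h. BioNICD1 gave 5847 calls, 2766 down, with the 6 control-cell libraries alone, and 1041 to 1370 down without 1 library. Its difference by RBPJ gave 1614 to 4361 calls (1016 to 2372 up, 576 to 1989 down) without 1 library. With no low-count filter list medians were 0.32 (Notch targets), 0.69 (cytotoxic granule), 0.0437 (cytokine receptor), 0 (costimulatory, receptor tyrosine kinase), 0.0167 (estrogen receptor), 0.0279 (neuropilin) and -0.00059 (solute carrier). With DESeq2 65.4% of genes up at 24 h also rose with BioNICD1 and 5.47% fell, and 48.04% of genes down rose. The causes were not tested. Depth limits the precision of genes near 3 counts, which corresponded to 0.556 to 0.694 CPM.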

Other observations

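Several Notch target genes, and the B cell marker Cd22, were far from silent in EtOH. Il2ra stood at 213 and 211 CPM in EtOH with NICD1-ER and at 0.946 ± 0.632 CPM (mean ± SD, n = 3) with Biocontrol in control cells. Dtx1 stood at 88.5 and 85.6 CPM against 1.67 ± 0.712 CPM, Hes1 at 43.7 and 44.6 CPM against 2.22 ± 1.22 CPM, and Cd22 at 37.4 and 43.7 CPM against 0.241 ± 0.247 CPM. The experiments were normalised separately and their libraries differ in the share of histone counts, so these values stand side by side without a test, and what they share or differ in beyond the construct was not tested.

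Some genes of lists not described above also rose at 24 h. Vegfa, a growth factor of blood vessels, rose from 174 and 168 CPM to 268 and 279 CPM (log2 0.68, adjusted p = 2.79e-08), and Adm, which encodes adrenomedullin, from 40.9 and 39.5 CPM to 62.8 and 59 CPM (log2 0.60, adjusted p = 9.56e-05). Of 35 genes of glycolysis and hypoxia 6 rose, 2 fell and 27 did not pass, with a median log2 fold change of 0.0014. Of all genes tested, 6.59% rose and 4.22% fell. DESeq2 called 3 up and 1 down, and 3 rose without EtOH replicate 3, 4-OHT replicate 2 or 4-OHT replicate 3. The atypical NF-kB regulator Bcl3 rose from 16.4 and 15.5 CPM to 46.7 and 46.8 CPM (log2 1.55, adjusted p = 1.13e-07). Dusp1, a phosphatase that switches off MAP kinases, rose from 21.9 and 29.9 CPM to 102 and 97.8 CPM (log2 1.93, adjusted p = 7.63e-10).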
